A study of Mus musculus with 30 samples.

Results

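The RNA that went into the pulldowns of this study, called input here, was compared between injured and naive mouse sciatic nerve. Input libraries are 6 of the 30 samples, chosen by their labels: 3 naive inputs and 3 injured inputs, all transcripts of the input count table included. The material is axoplasm, a cytoplasmic extract of the nerve cleared of its pellet by centrifugation, and total RNA was sequenced from it. Naive nerves were uninjured, and injured nerves were taken 7 days after a sciatic nerve crush. Both groups were pools of 10 nerves per sample, and the study describes the 3 samples of a group as independent biological repeats. No strain, sex, age or genotype is stated for either group. The remaining 24 samples are antibody pulldowns (IP) of the RNA-binding proteins nucleolin and PTBP1 and pulldowns with the antibody blocked by its peptide, each from naive and injured nerve, and they are used below only to see whether the input changes recur.

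A crushed peripheral nerve loses its axons beyond the crush by Wallerian degeneration. Schwann cells, which wrap axons in myelin, then stop making myelin, divide and take on a repair state, while monocytes and neutrophils enter from the blood and clear axon and myelin debris. Macrophages that have eaten myelin must store or export its cholesterol, and fibroblasts, vessels and the perineurial sheath, whose tight junctions seal the nerve, are remodelled as axons regrow.

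The label axoplasm was checked against marker genes. Schwann cell, fibroblast, macrophage, fat and muscle markers were all counted beside axonal ones: S100b, a calcium-binding Schwann cell marker, had 979, 1079 and 1005 CPM (counts per 1000000 counts of the scaled library) in naive inputs 1, 2 and 3, and Nefl, the light neurofilament chain of axons, had 55.5, 22.3 and 30.6. Of 17 axonal and neuronal markers, 11 were tested, and Prph, Nefh, Tac1, Scn9a, Scn10a and Elavl4 were not among the tested transcripts. The inputs therefore hold RNA of many cell types of the nerve and not of axons alone. No whole-nerve sample was there for comparison. In such bulk samples fewer cells of a type and less RNA per cell cannot be told apart.

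Totals ran from 13895675 to 18391743 counts in naive inputs and from 7536033 to 13346459 in injured inputs, summed over the 15006 transcripts listed. One noncoding transcript, Yam1 (chr17:39846958-39848788 on GRCm38, + strand, 1 exon), took 3.54%, 1.09% and 0.482% of the counts of naive inputs 1 to 3 and 38.2%, 19.5% and 5.37% of injured inputs 1 to 3. Its share was higher in every injured input than in any naive one. It was taken out before scaling and is described by these shares alone. Injured input 1 stands apart: it is the shallowest library, has the most Yam1 and lists 7.28% of transcripts at 0 counts. Lars2, which encodes a mitochondrial leucyl-tRNA synthetase, and the antisense transcript Gm15564 followed the same order, with Lars2 at 34527, 7601 and 3837 CPM in naive and 304707, 45205 and 15107 in injured inputs; both groups overlapped, and their calls (edgeR adjusted p of 0.040 and 0.038) were lost without injured input 1 (0.30 and 0.33). Every listed transcript has at least 5 counts in injured inputs 2 and 3, whereas 1274 have under 5 in naive input 2 or 3 and 38 have none in any naive input. Transcripts that vanished after crush are thus missing from the table, and losses are cut short.

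After crush 1841 transcripts rose and 2053 fell of 14197 tested, which is 13% and 14.5%, or 27.4% in both directions. A call is an adjusted p under 0.05 in edgeR's quasi-likelihood test, two-sided, over all transcripts tested. With Yam1 kept in library totals as the only scaling, 846 rose and 1481 fell. With DESeq2's size factors 2009 rose and 1919 fell, and with upper-quartile factors 2185 and 1778. Which direction had more calls thus depended on the scaling. Large changes were common: 876 called transcripts were at least 4-fold higher and 867 at least 4-fold lower, while 167 were at least 16-fold higher and 36 at least 16-fold lower. The naive and injured values of 6344 transcripts (44.7%) did not overlap. Without injured input 1, 1776 rose and 1799 fell of 14568 tested (12.2% and 12.3%); 1605 of the 1841 rising and 1666 of the 2053 falling calls were kept, and none changed sign. Split into 4 parts by mean CPM, 260 transcripts rose and 57 fell in the least abundant part, where the table's filter acts, against 728 and 964 in the most abundant. Without naive input 2 the falling calls dropped to 1267, and without injured input 2 the rising calls dropped to 1194.

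**Figure D1:**
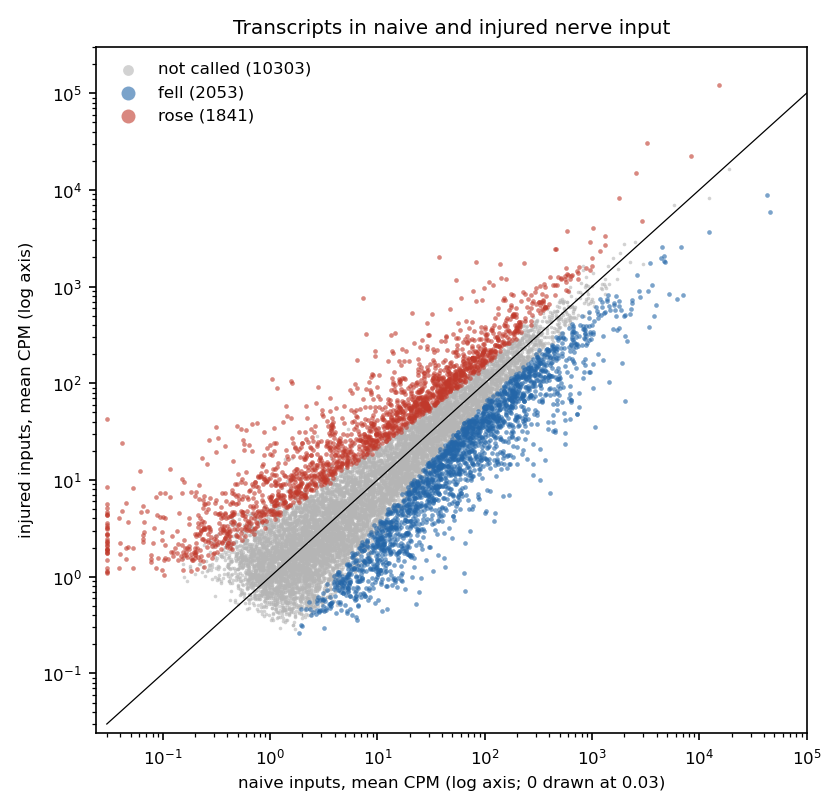
Mean CPM of each of the 14197 tested transcripts in the 3 naive inputs (horizontal, log axis) and the 3 injured inputs (vertical, log axis), with calls in colour. Rising transcripts reach a naive mean of 0, drawn at 0.03, while no transcript lies under an injured mean of 0.263 CPM, where the table's filter ends the injured axis.

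Among the most abundant transcripts, a lysosomal protease and actin rose, and ferritin and matrix products fell. Ctsb, a lysosomal cathepsin, was at 2101, 2588 and 3074 CPM in naive and at 15016, 15796 and 14186 in injured inputs, which the fit puts at 2.54 ± 0.24 on the log2 scale (value ± SE, as in all brackets below; adjusted p = 1.9e-05). Every injured input lay above every naive one, and Ctsb entered the 10 most abundant transcripts. Actb, cytoplasmic actin, rose from 7975, 6724 and 10134 to 23393, 22860 and 20868 CPM (1.43 ± 0.24, adjusted p = 0.00092). Fth1, the heavy chain of the iron store ferritin, fell from 62835, 37834 and 28376 to 12688, 6300 and 7414 CPM (-2.29 ± 0.36), and Ogn, an extracellular matrix proteoglycan, fell from 6934, 6504 and 7639 to 378, 543 and 1515 (-3.11 ± 0.44). Col1a1, a fibrillar collagen chain, was at 5335, 5194 and 7040 CPM and then at 6831, 7887 and 6277, with overlapping groups (0.26 ± 0.22), whereas Col3a1 fell from 11427, 11019 and 14651 to 1971, 2590 and 6526 (-1.74 ± 0.39, adjusted p = 0.0054). These levels are scaled to library size and not to length, so they order transcripts by reads and not by molecules.

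Among transcripts that reached 50 CPM in their higher group, the 15 with the largest rise included genes of myeloid cells and of cell division. Il7r, the interleukin-7 receptor chain, was at 1.49, 1.5 and 1.74 CPM in naive and 121, 73.2 and 124 in injured inputs (6.06 ± 0.35, adjusted p = 1.3e-06). Clec4d, a lectin receptor of myeloid cells, went from 2.74, 0.810 and 1.27 to 110, 89.7 and 106 CPM (6.0 ± 0.43). Atp6v0d2, a subunit of the acidifying proton pump of macrophages and osteoclasts, was at 13.8, 5.05 and 4.69 and then at 450, 258 and 262 CPM (5.38 ± 0.45). In these 3 genes no injured library came near a naive one. Arl4c, a small GTPase, rose from 10.9, 17.4 and 11.7 to 326, 337 and 277 CPM (4.55 ± 0.27), and the counted transcript of Ctsd, a lysosomal protease, rose from 15.7, 21.3 and 25.5 to 552, 756 and 296 (4.68 ± 0.36). Pmaip1, which encodes the pro-apoptotic protein Noxa, rose from 2.11, 2.12 and 2.26 to 69.6, 59.3 and 45.2 CPM (4.74 ± 0.35). Pik3r5, a regulatory subunit of the leukocyte PI3-kinase gamma, rose from 12.9, 2.87 and 3.65 to 217, 190 and 118 CPM (4.77 ± 0.53). Spc24, a kinetochore protein, rose from 4.38, 1.43 and 2.55 to 137, 78.3 and 61.2 CPM (5.05 ± 0.47), and 2810417H13Rik, now named Pclaf, a PCNA-binding factor of S phase, from 15.8, 14.6 and 13.1 to 338, 315 and 336 (4.50 ± 0.23). The other 6 were Cxcl5, Arg1, Lrrc15, Gpnmb, Retnlg and Plk1.

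The 15 largest falls included genes of Schwann cells, fat and red blood cells. Kcnk1, a potassium leak channel, was at 312, 339 and 434 CPM and then at 20.5, 2.19 and 25.5 (-4.51 ± 0.63, adjusted p = 0.00030). Lims2, an adaptor at integrin adhesions, fell from 114, 108 and 145 to 3.15, 1.55 and 6.60 CPM (-4.97 ± 0.46). Slc22a17, described as a receptor for lipocalin-2, fell from 42.5, 59.5 and 117 to 1.31, 2.19 and 5.33 CPM (-4.52 ± 0.54), and Rarres2, the chemoattractant chemerin, from 151, 150 and 76.3 to 2.10, 0.821 and 10.8 (-4.67 ± 0.70). In all 4 the lowest naive library lay well above the highest injured one. Thrsp, a regulator of fat synthesis, fell from 95.6, 102 and 103 to 6.04, 2.83 and 4.87 CPM (-4.49 ± 0.33). The remaining transcripts were Pmp22, Hba-a1, Hbb-bs, Cyp2e1, Car3, Cfd, Retn, Adipoq, and the noncoding Gm1992 and B230312C02Rik, which are taken up below where they are new.

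**Figure D2:**
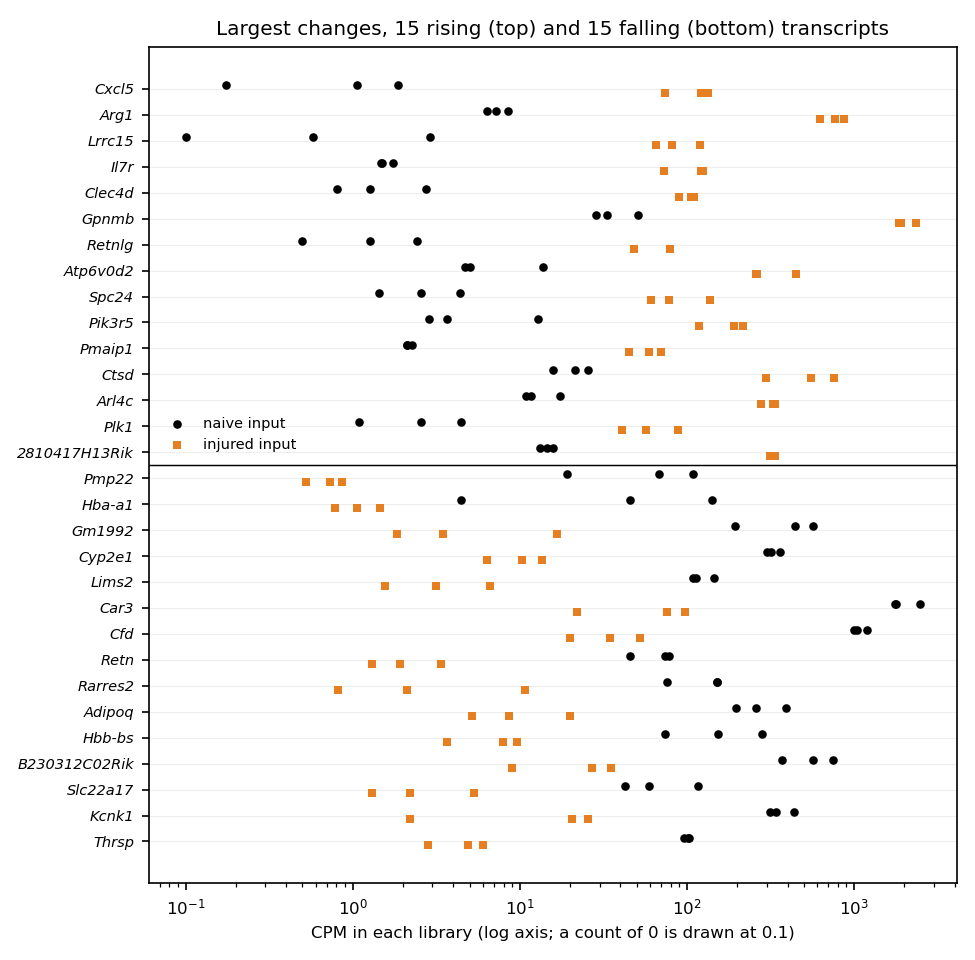
CPM in each library (horizontal, log axis) of the 15 rising and 15 falling transcripts with the largest log2 fold change among called transcripts whose groups do not overlap and whose higher group averages at least 50 CPM. Black circles are the 3 naive inputs and orange squares the 3 injured inputs; Lrrc15 in naive input 2 is the one count of 0, drawn at 0.1.

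Genes were then read in 44 lists of known roles, each gene represented by its tested transcript with the most CPM. Of 777 distinct genes listed 593 were tested; 164 rose and 156 fell. Over all 11636 genes tested in that way 14.0% rose and 16.7% fell, and the median log2 fold change over all transcripts was -0.08. These 2 shares are the background for every list below. Lists and members were chosen with earlier results of these data known, so an excess over the background is no evidence by itself. No list was tested as a set. In 13 cases a list had no call in one direction by edgeR; over these together, 6 members had an unadjusted p under 0.05, and DESeq2 called 3 and limma voom 1. A few genes stand in 2 lists, such as Hmox1, Dhh and Arg1. Some listed genes are represented by a transcript not annotated as protein-coding, such as 3 of 18 endothelial and 3 of 25 axon guidance genes.

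**Figure D3:**
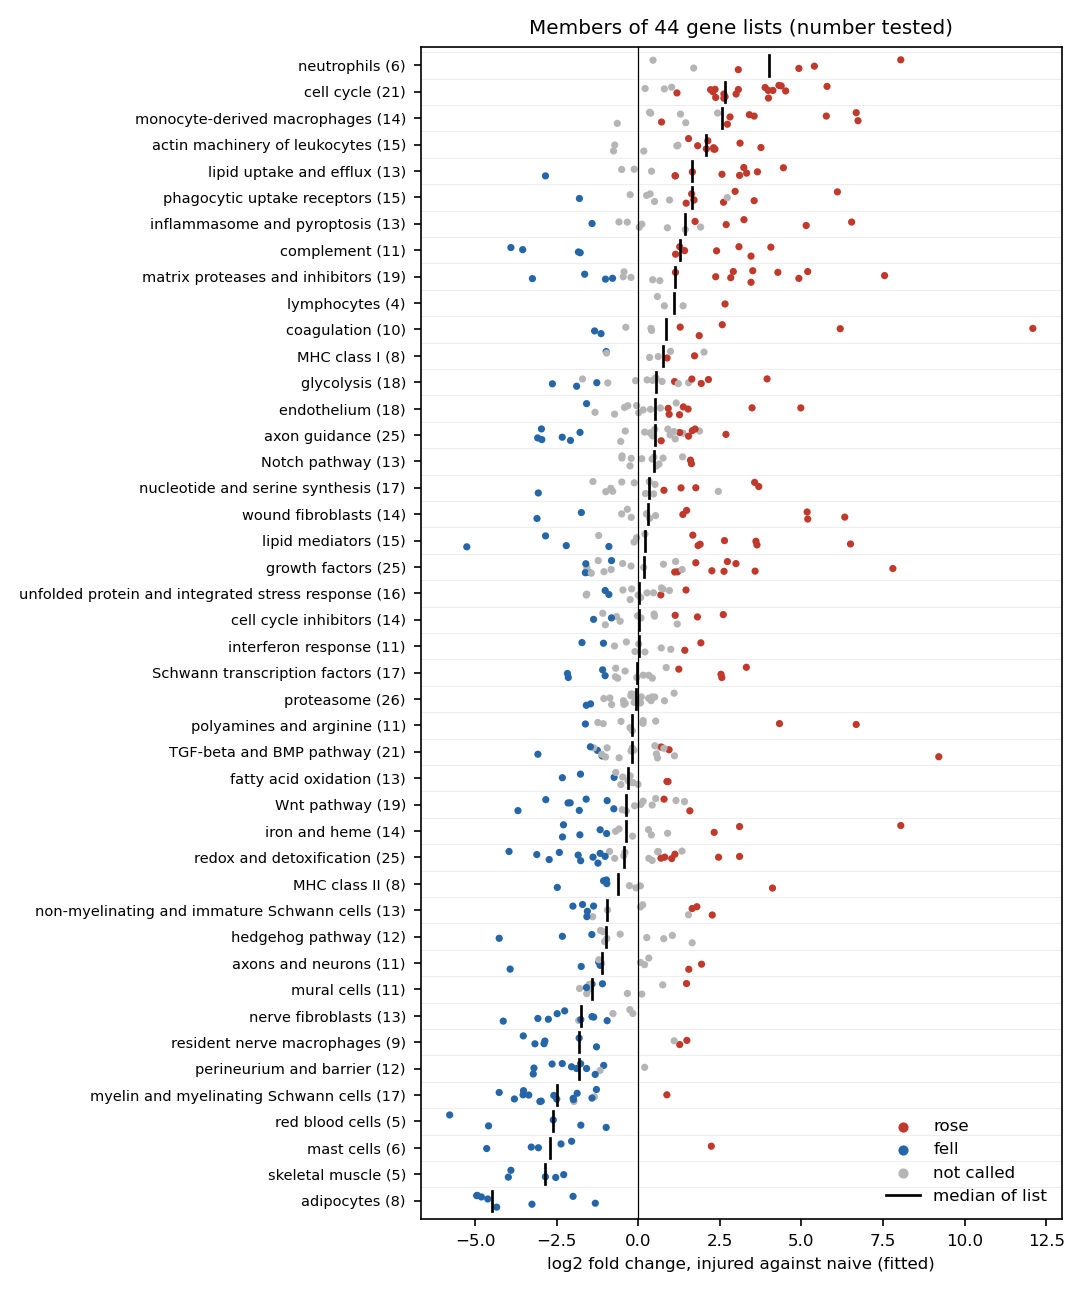
Fitted log2 fold change, injured against naive (horizontal), of each tested member of the 44 lists, ordered by list median (black bar), with the number tested in parentheses. Neutrophil, cell cycle and monocyte-derived macrophage lists have the highest medians (3.99, 2.66 and 2.58) and the adipocyte list the lowest (-4.47).

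Genes listed for macrophages that develop from monocytes rose more often than they fell, and those listed for macrophages resident in nerve fell more often. The origin of the cells was not tested. Of 14 tested monocyte-derived markers 8 rose and none fell, with a list median of 2.58, against 2 rising and 6 falling of 9 resident markers, with a median of -1.81. Irg1, now named Acod1, the itaconate-making enzyme of activated macrophages, was at 0.0782, 0.623 and 0.232 CPM in naive and 28.9, 40.0 and 36.1 in injured inputs (6.73 ± 0.60, adjusted p = 1.5e-05). Cd68, a lysosomal membrane protein, rose from 21.5, 46.4 and 63.5 to 283, 277 and 364 CPM (2.81 ± 0.35). The monocyte genes Ccr2 and Ly6c2 were not called at log2 fold changes of 1.29 and 1.46. Among resident markers, Lyve1, a hyaluronan receptor, fell from 145, 127 and 170 to 20.5, 10.4 and 28.7 CPM (-2.89 ± 0.35, adjusted p = 0.00011). Timd4, a receptor for phosphatidylserine on dying cells, fell from 9.78, 18.8 and 18.3 to 1.84, 2.01 and 1.40 CPM (-3.17 ± 0.51), and Retnla, an alternative-activation product, from 925, 1174 and 753 to 95.1, 91.4 and 206 (-2.86 ± 0.33). Clec10a, a galactose-binding lectin, and Cbr2 fell too (-3.52 ± 0.66 and -1.81 ± 0.35), as did Folr2 (-1.28 ± 0.44), whose call was lost without injured input 1 (adjusted p = 0.13). Mrc1, the mannose receptor, went against the rest of the list: 577, 544 and 420 CPM became 1408, 1209 and 1102 (1.27 ± 0.21, adjusted p = 0.0010), and Cx3cr1, the fractalkine receptor, rose as well (1.49 ± 0.29). Summed over the list, resident markers overlapped between groups, at 1582 to 2012 CPM in naive and 1520 to 1675 in injured inputs, and Mrc1 alone made 1102 to 1408 CPM of the injured sums.

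Complement genes moved in both directions, with starters and receptors higher and C3, C4b and the inhibitor of C1 lower. Of 11 tested members 7 rose and 4 fell, against 4 and 4 with Yam1 in library totals and 3 and 3 with glmTreat. The 3 chains of C1q, the starter of the classical pathway made by macrophages, all rose: C1qc from 314, 390 and 676 to 2227, 2993 and 2066 CPM (2.40 ± 0.30, adjusted p = 0.00014), C1qa by 1.42 ± 0.27 and C1qb by 1.27 ± 0.20 on the log2 scale. C3ar1, the receptor for the C3a fragment, rose from 82.9, 97.6 and 68.0 to 687, 550 and 874 CPM (3.09 ± 0.25), and Itgam, a chain of the CR3 receptor, rose from under 0.5 CPM in each naive input to 2.89, 3.46 and 3.07. Its partner chain Itgb2 was called with overlapping groups and lost the call without injured input 1 (adjusted p of 0.045 and 0.11). Cfp, which encodes properdin, a stabilizer of the alternative pathway, rose by 1.15 ± 0.29. C3 fell from 211, 235 and 355 to 81.1, 78.8 and 65.3 CPM (-1.83 ± 0.25), and C4b from 33.5, 18.4 and 8.28 to 1.05, 0.821 and 3.00 (-3.54 ± 0.67). Serping1, the inhibitor of C1, fell from 374, 610 and 1171 to 33.1, 38.0 and 72.1 CPM (-3.90 ± 0.44, adjusted p = 6.4e-05).

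Receptors for uptake and genes that handle lipid rose more often than they fell. Of 15 tested uptake receptors 7 rose and 1 fell, and of 13 genes of lipid uptake and efflux 9 rose and 1 fell. Among the 15 receptors, 5 were represented by a transcript not annotated as protein-coding. Msr1, a scavenger receptor, rose from 35.4, 30.4 and 20.3 to 195, 246 and 232 CPM (2.97 ± 0.27), and Mertk, a receptor for apoptotic cells, from 56.2, 42.7 and 41.4 to 144, 129 and 164 (1.64 ± 0.23). Axl, of the same receptor family as Mertk, fell from 191, 230 and 275 to 42.0, 50.7 and 106 CPM (-1.8 ± 0.33, adjusted p = 0.0017). Plin2, which coats lipid droplets, rose from 51.3, 52.7 and 57.1 to 1387, 1217 and 916 CPM (4.45 ± 0.25, adjusted p = 9.9e-07). Soat1, which esterifies cholesterol for storage, rose from 39.2, 51.9 and 50.2 to 620, 606 and 551 CPM (3.65 ± 0.23). The cholesterol exporters Abca1 and Abcg1 rose by 3.32 ± 0.24 and 2.57 ± 0.22, with Abca1 at 142, 99.2 and 90.5 CPM before and 1041, 1157 and 1117 after. Fabp5, a fatty acid carrier, rose by 3.23 ± 0.32, while Cyp27a1, which turns cholesterol into an oxysterol, fell from 138, 103 and 75.7 to 9.72, 17.9 and 16 CPM (-2.84 ± 0.33). Npc1, which releases cholesterol from lysosomes, was not called at 0.41.

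Genes of class II antigen presentation moved in both directions. Of 8 tested genes of MHC class II presentation 1 rose and 4 fell: H2-DMa, which loads peptides, fell from 84.3, 98.6 and 93.4 to 6.83, 17.7 and 23.9 CPM (-2.48 ± 0.38), and H2-Eb1 from 473, 430 and 521 to 145, 250 and 285 (-1.06 ± 0.26). H2-Aa and H2-Ab1 were called lower as well (-0.97 ± 0.29 and -0.96 ± 0.28), but not without injured input 1 (adjusted p of 0.11 and 0.074). With library totals in place of TMM, and with glmTreat's test against a 2-fold change, 1 rose and 1 fell; without naive input 2, 2 fell. The riser was Ctss, a cathepsin that also trims the class II invariant chain, from 2.27, 2.37 and 4.40 to 46.2, 52.7 and 58.6 CPM (4.11 ± 0.39). For MHC class I, H2-D1 rose (0.88 ± 0.20) and B2m, the shared light chain, was called lower (-0.98 ± 0.28) and lost that call without injured input 1 (0.12). Some class I H2 genes are near-identical copies of one another, so reads of H2-D1 may have been shared with them. Of 11 interferon-response genes 2 rose and 2 fell, with a median of 0.02: Bst2, a virion tether, rose from 73.7, 71.8 and 82.4 to 309, 315 and 239 CPM (1.92 ± 0.22) and Ifit3 fell (-1.72 ± 0.35).

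Other immune cells differed in direction. Neutrophil markers rose in 4 of 6 tested, and their summed level was 12.8, 3.05 and 8.39 CPM in naive and 167, 103 and 120 in injured inputs. Mmp8, the neutrophil collagenase, rose from 2.89, 0.561 and 0.521 to 44.6, 32.0 and 41.5 CPM (4.92 ± 0.63), and Ltf, lactoferrin, had no count in any naive input and was at least 29.4-fold higher, against a floor of 3 counts over the naive group. Mast cell markers fell in 5 of 6 tested and were lower in every injured input when summed, at 193, 200 and 210 against 50.4, 45.8 and 19.5 CPM. The mast cell proteases Cpa3, Mcpt4 and Cma1 fell by 4.64 ± 0.57, 3.28 ± 0.43 and 3.06 ± 0.38 on the log2 scale, Cma1 from 41.9, 32.5 and 36.6 to 6.04, 4.01 and 3.60 CPM. Hdc, the histamine-making enzyme, which other myeloid cells can also express, rose (2.24 ± 0.69, adjusted p = 0.029). Few lymphocyte genes could be tested, and of 4 only Cd4, which macrophages can also express, rose (2.66 ± 0.57); Cd3e was not called at 1.38. Actin regulators of leukocytes rose in 10 of 15 and fell in none, led by Lcp1, from 1.88, 4.80 and 5.62 to 40.2, 88.2 and 39.2 CPM (3.76 ± 0.49), with Rac2 and Nckap1l at 2.35 ± 0.29 and 2.32 ± 0.21.

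Inflammatory mediators showed both arms of several systems. In the inflammasome list 5 of 13 rose and 1 fell: Il1b, an inflammatory cytokine, rose from 0.156, 0.935 and 0.810 to 13.7, 36.3 and 19.6 CPM (5.15 ± 0.66). Its antagonist Il1rn had 2 counts over the naive inputs and a count ratio of 130 (95% counting interval 35.5 to 1083). The sensor Naip5 and the adaptor Pycard rose (2.69 ± 0.35 and 1.74 ± 0.25), whereas Casp1, the protease of the complex, was not called at 0.03. Of 15 genes of lipid mediators 7 rose and 4 fell. Ptgs2, the inducible cyclooxygenase, rose from 1.33, 1.43 and 0.405 to 10.2, 17.5 and 10.8 CPM (3.61 ± 0.61), and Hpgds, prostaglandin D synthase, from 51.5, 31.8 and 23.3 to 217, 242 and 205 (2.64 ± 0.30). Hpgd, which inactivates prostaglandins, fell from 132, 129 and 123 to 26.5, 23.0 and 33.7 CPM (-2.20 ± 0.25), and Ephx2, which degrades epoxides of fatty acids, fell by 2.84 on the log2 scale. Pla2g7, which breaks down platelet-activating factor, rose from 121, 244 and 342 to 721, 1131 and 674 CPM (1.83 ± 0.35).

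Cell cycle genes rose nearly as a block. Of 21 tested cell cycle genes 18 rose and none fell, and 17 of the 18 were also called without injured input 1; the summed level was 308 to 341 CPM in naive and 1937 to 2022 in injured inputs. Mki67, present in all cycling cells, rose from 19.9, 14.1 and 7.12 to 266, 192 and 192 CPM (3.99 ± 0.36), and Ccna2, the cyclin of S phase and G2, from 9.62, 10.9 and 8.05 to 214, 188 and 167 (4.31 ± 0.26, adjusted p = 1.5e-06). Cdk1, the mitotic kinase, rose from 0.156, 0.436 and 0.174 to 12.3, 15.1 and 16.7 CPM (5.79 ± 0.63). The 3 not called were Mcm4, Mcm7 and Pcna, at 0.80, 1.02 and 0.21. Rrm2 and Tk1, which supply deoxynucleotides, rose (3.57 ± 0.27 and 3.69 ± 0.52), among 5 rising and 1 falling of 17 genes of nucleotide and serine synthesis. The faller was Phgdh, the first enzyme of serine synthesis, at 46.9, 38.3 and 28.1 and then 1.31, 4.83 and 6.67 CPM (-3.06 ± 0.49). Cell cycle inhibitors were mixed: Cdkn1a, which encodes p21, fell from 319, 327 and 395 to 165, 102 and 136 CPM (-1.37 ± 0.23), and Cdkn2a rose from 1.41, 2.56 and 2.78 to 11.0, 25.5 and 4.73 (2.61 ± 0.64, adjusted p = 0.0099).

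Promoters of the rising genes were searched for 14 short motifs, on both strands, in windows of 300 bases (250 before and 50 after the start) from RefSeq on GRCm38.p6, with 2638 of 3565 genes matched by symbol. The 3 motifs given here were picked after the shares were seen, and no test was made. GAGGAAGT, a form bound by the myeloid factor PU.1, was in 5.42% of 1438 promoters of rising, 2.29% of 1663 of falling and 2.89% of 7064 of uncalled genes, and in 3.20% of all 32851 promoters. TTTCCCGC and TTTGGCGC, forms bound by E2F factors of S phase, were in 2.64% and 1.53% of rising, 1.26% and 0.722% of falling, 2.00% and 0.835% of uncalled and 1.07% and 0.514% of all promoters. In these the rising share was 2.37, 2.09 and 2.12 times the falling one; for 10 of the other 11 it was 0.791 to 1.68 times, and the SRF form had 1 match in rising promoters. CCAAT was in 37.0% of rising and 38.5% of falling promoters, and the AP-1 form TGANTCA in 7.02% and 5.47%, against 4.69% of uncalled and 7.81% of all promoters. Of the rest, the ISRE form was in 3.44% of all promoters, the SRF form in 0.0639%, the CLEAR form TCACGTGA in 0.974%, the NF-kappa-B form GGGANTTCC in 1.68% and the SRE form TCACNCCAC in 1.24%. The CHR forms TTTGAA (17.9% of all promoters) and TTTAAA (13.2%), the ARE form TGACNNNGC (12.4%) and the SOX form ACAAAG (18.7%) were the others. None of the first 3 motifs contains another in its letters. A match is a description and not a site. Among the rising list genes considered for display, 7 had the first motif in the 250 bases before the start. The second was found in 2, Cdkn2a and Trem2, and the last in 2, Mcm5 and Mcm6. These 250 bases are shown for 4 of the genes, the match or its reverse complement in capitals. They are C1qc and Spp1 with the first motif and the replication genes Mcm5 and Mcm6 with the last.
C1qc, chr4:136892915-136893164, - strand: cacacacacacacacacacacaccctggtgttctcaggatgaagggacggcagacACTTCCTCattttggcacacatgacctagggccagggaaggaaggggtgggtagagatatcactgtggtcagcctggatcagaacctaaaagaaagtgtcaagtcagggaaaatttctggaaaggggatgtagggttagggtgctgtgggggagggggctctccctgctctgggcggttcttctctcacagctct
Spp1, chr5:104434861-104435110, + strand: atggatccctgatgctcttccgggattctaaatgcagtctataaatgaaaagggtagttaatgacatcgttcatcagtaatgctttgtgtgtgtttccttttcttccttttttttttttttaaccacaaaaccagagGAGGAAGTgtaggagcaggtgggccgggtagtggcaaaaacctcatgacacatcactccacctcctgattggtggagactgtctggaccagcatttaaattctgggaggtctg
Mcm5, chr8:75109259-75109508, + strand: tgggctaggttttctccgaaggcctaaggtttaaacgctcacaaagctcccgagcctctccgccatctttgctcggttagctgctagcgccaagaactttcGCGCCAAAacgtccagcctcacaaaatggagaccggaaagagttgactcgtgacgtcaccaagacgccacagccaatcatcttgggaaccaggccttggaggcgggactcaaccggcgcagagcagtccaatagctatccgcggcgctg
Mcm6, chr1:128359706-128359955, - strand: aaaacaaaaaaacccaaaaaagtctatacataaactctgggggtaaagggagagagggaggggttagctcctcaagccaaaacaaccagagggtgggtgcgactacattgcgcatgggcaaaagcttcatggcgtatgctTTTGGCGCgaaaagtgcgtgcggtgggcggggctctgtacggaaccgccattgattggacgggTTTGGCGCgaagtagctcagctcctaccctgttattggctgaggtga

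Of these 4 genes, C1qc is described above. Spp1, the secreted protein osteopontin, rose from 10.8, 10.3 and 22.6 to 99.5, 119 and 72.8 CPM (2.73 ± 0.36). Mcm5 and Mcm6, subunits of the replicative helicase, rose from 8.68, 7.42 and 11.3 to 33.9, 61.6 and 44.7 CPM (2.35 ± 0.35) and from 20.2, 14.8 and 25.4 to 23.1, 65.8 and 47.8 (1.19 ± 0.39, adjusted p = 0.039). For Mcm6 injured input 1 lay among the naive inputs, so the groups overlapped.

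Myelin genes fell nearly as a block, with 14 of 17 tested falling and 1 rising, and the same 14 were called without injured input 1. Ugt8a, which makes the myelin lipid galactosylceramide, fell from 1496, 1519 and 1263 to 64.6, 68.1 and 174 CPM (-3.79 ± 0.37, adjusted p = 2.9e-05). Mal, a myelin proteolipid, fell from 1694, 1856 and 2115 to 85.1, 86.5 and 318 CPM (-3.53 ± 0.46), and Drp2, a dystrophin relative at the myelin surface, from 524, 582 and 763 to 59.4, 58.1 and 113 (-3.01 ± 0.30). S100b fell from 979, 1079 and 1005 to 63.3, 69.5 and 134 CPM (-3.51 ± 0.30). In Ugt8a, Mal, Drp2 and S100b, injured input 3 was the highest injured library. The riser was Mbp, myelin basic protein, whose tested transcript was at 35.7, 30.0 and 24.8 and then at 58.3, 55.4 and 52.7 CPM (0.88 ± 0.26, adjusted p = 0.027).

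Genes of Schwann cells without myelin fell more often than they rose, at 5 and 3 of 13. Scn7a, a sodium channel of these cells, fell from 2320, 1689 and 1550 to 542, 485 and 676 CPM (-1.71 ± 0.23), and the adhesion proteins Chl1 and Cadm4 fell by 2.00 ± 0.30 and 1.37 ± 0.26 on the log2 scale. Ncam1, a cell adhesion molecule, rose from 29.1, 30.7 and 21.2 to 100, 73.9 and 108 CPM (1.8 ± 0.27). Ngfr, the neurotrophin receptor of immature Schwann cells, Gap43 and Gfap were not called at -0.94, 0.07 and 1.54. Transcription factors of the lineage split 4 and 4 of 17. Id2, an inhibitor of differentiation factors, rose from 90.3, 101 and 100 to 935, 976 and 993 CPM (3.31 ± 0.21, adjusted p = 1.8e-06), and Sox4 from 23.1, 22.3 and 25.6 to 130, 190 and 100 (2.56 ± 0.28). Sox10, which maintains Schwann cell identity, fell from 334, 386 and 796 to 79.3, 93.0 and 170 CPM (-2.14 ± 0.37), and Wwtr1, the Hippo effector TAZ, from 124, 187 and 318 to 27.8, 43.0 and 67.8 (-2.17 ± 0.38). Jun, a factor of the repair state, was not called at 0.43, nor was Sox2 at -0.05.

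Differences between the pathway lists were not tested, and several lie near the shares of all genes (14.0% rising and 16.7% falling, with 1 transcript per gene). Hedgehog signalling runs from Dhh, secreted by Schwann cells, through Smo to the factor Gli1 in perineurial and fibroblast cells. Dhh fell from 199, 262 and 393 to 13.1, 8.85 and 22.1 CPM (-4.26 ± 0.38, adjusted p = 1.5e-05), Smo from 108, 102 and 120 to 38.1, 43.0 and 41.7 (-1.42 ± 0.23), and Gli1 from 107, 93.6 and 53.8 to 5.78, 12.4 and 31.2 (-2.32 ± 0.49). None of the 12 tested was called higher by edgeR, but DESeq2 called 2 higher and limma voom 1. The highest log2 fold change in the list was 1.65. Ptch1, Gli2 and Gli3 were not called at -1.03, -1.08 and 0.78. Of 19 Wnt genes 2 rose and 8 fell: the enhancer Rspo1 fell from 96.4, 92.2 and 68.1 to 7.09, 7.66 and 5.33 CPM (-3.68 ± 0.31), the ligand Wnt6 by 2.15 ± 0.32 and the antagonist Sfrp5 from 713, 845 and 1232 to 117, 150 and 126 (-2.83 ± 0.26), while Rspo3 rose (1.58 ± 0.47). Notch genes had 2 risers and no faller of 13, Nrarp and Rbpj, at 1.63 ± 0.42 and 1.60 ± 0.44; neither was called with Yam1 in library totals, with glmTreat or without naive input 2. In the TGF-beta and BMP list 3 rose and 4 fell of 21, and 5 rose and 4 fell with DESeq2's size factors. The BMP antagonist Grem1 had no naive count and was at least 109-fold higher against the 3-count floor, at 1.31, 7.66 and 8.13 CPM, and Smad9, a BMP effector, fell from 7.12, 7.29 and 12.5 to 0.263, 1.09 and 1.53 (-3.07 ± 0.64).

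Of 25 tested growth factors 9 rose and 5 fell. Gdnf, a survival factor for neurons, had no naive count and was at 2.36, 2.19 and 2.07 CPM after crush, at least 33.0-fold higher against the floor. Igf2 was at 6.96, 5.55 and 2.08 and then at 79.3, 26.3 and 11.8 CPM (2.99 ± 0.66), Hgf at 0, 0.436 and 1.45 and then 3.94, 10.5 and 8.80 (3.58 ± 0.94), and Btc, an EGF-receptor ligand, rose by 2.63 ± 0.54. Tgfa, another ligand of that receptor, fell from 111, 82.8 and 73.4 to 33.9, 23.3 and 31.3 CPM (-1.60 ± 0.27), and Tgfb3 from 124, 130 and 106 to 42.0, 35.7 and 49.0 (-1.50 ± 0.24). Vegfb, Ptn and Grn were not called at -1.23, -0.83 and 1.34, and Bdnf and Artn were not tested. Of 25 axon guidance genes 6 rose and 6 fell, but the number rising was 3 to 10 under other scalings, with 6 falling in each, and 1 (with 5 falling) with glmTreat. The 6 fallers were all guidance cues, namely Slit2, Sema3b, Sema3d, Sema3e, Sema5a and a Sema4d transcript listed as Gm15440. Sema5a fell from 850, 864 and 962 to 254, 257 and 266 CPM (-1.78 ± 0.20), Sema3d from 322, 322 and 345 to 90.9, 58.7 and 85.4 (-2.08 ± 0.23) and Slit2 by 2.33 on the log2 scale. The 6 risers of the fit used here were receptors and 1 ephrin: Plxna1 and Plxnd1, semaphorin receptors, rose by 1.54 ± 0.26 and 1.66 ± 0.30, Unc5b, a netrin receptor, by 2.69 ± 0.58, and Efnb1 by 0.70 ± 0.23, with Plxnc1 and Ephb2 beside them.

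Of 12 tested genes of perineurium and barriers, a list that also holds Cldn5 of tight endothelium, 10 fell and none rose. Cldn1, the tight-junction claudin of perineurium, fell from 818, 804 and 854 to 123, 156 and 213 CPM (-2.33 ± 0.24, adjusted p = 3.6e-05). Tjp1, which anchors tight junctions to actin, fell from 556, 603 and 873 to 114, 133 and 245 CPM (-2.04 ± 0.31), and Slc2a1, the glucose transporter of barriers, from 414, 562 and 711 to 112, 157 and 186 (-1.89 ± 0.27). Lypd2 and Ocln fell as well (-3.21 ± 0.33 and -2.64 ± 0.53). The vessel list, in which Cldn5 stands too, had 7 rising and 1 falling of 18, but 2 rising and 1 falling with Yam1 in library totals. Apln, a peptide of sprouting tip cells, rose from 0.156, 2.74 and 1.39 to 47.8, 56.5 and 34.6 CPM (4.98 ± 0.67), and Esm1, another tip-cell product, from 1.09, 2.87 and 1.91 to 22.1, 23.4 and 21.1 (3.49 ± 0.48). Plvap, found in leaky vessels, rose by 1.38 ± 0.42, while Cldn5, the claudin of tight endothelium, fell from 76.7, 52.2 and 34.4 to 17.3, 20.1 and 16.9 CPM (-1.58 ± 0.34). The general endothelial genes Cdh5, Kdr, Tek and Emcn were not called at 0.15, -0.32, -0.05 and 0.02. Of 11 mural genes, Rgs5 of pericytes rose from 114, 158 and 137 to 356, 387 and 398 CPM (1.48 ± 0.21), and Cspg4, Mylk and Tagln fell, the last not without injured input 1 (adjusted p of 0.016 and 0.080).

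The difference between the resting and wound fibroblast lists was not tested. Of 13 nerve fibroblast genes 9 fell and none rose, led by Mfap5, a microfibril protein, from 418, 516 and 734 to 11.3, 12.1 and 69.3 CPM (-4.13 ± 0.61), with Gsn, an actin-severing protein, at -3.07 ± 0.30 and Cd55, a complement regulator, at -2.48 ± 0.39. Of 14 wound fibroblast genes 5 rose and 2 fell, among them Thbs2, a matrix glycoprotein, from 157, 169 and 222 to 424, 588 and 523 CPM (1.48 ± 0.23), and Cthrc1, a collagen-associated protein counted in a retained-intron form, from at most 0.187 to 3.41, 5.84 and 3.20. The summed level of the wound list was lower in every injured input, at 12624 to 18831 against 20208 to 26880 CPM. With at least 5 counts required in libraries 2 and 3 of both groups, 2 rose and 2 fell, and with glmTreat 3 and 1. Matrix proteases and their inhibitors had 10 rising and 4 falling of 19. Adam12, a membrane protease, rose from 5.01, 5.55 and 13.1 to 62.0, 99.9 and 98.2 CPM (3.46 ± 0.41), and Mmp13, a collagenase, from 2.35, 2.87 and 0.347 to 22.3, 22.0 and 19.0 (3.51 ± 0.64). Mmp2, a gelatinase, fell from 567, 818 and 873 to 62.8, 78.0 and 97.3 CPM (-3.24 ± 0.26, adjusted p = 7.8e-06), and Timp3, an inhibitor held in the matrix, from 230, 163 and 106 to 54.6, 44.5 and 61.0 (-1.64 ± 0.29). Timp1 had 2 naive counts and a count ratio of 49.6 (95% counting interval 13.2 to 418). Coagulation genes rose in 5 of 10: F10 had 3 naive counts and a count ratio of 95.0 (32.0 to 465), F2r, a thrombin receptor, rose by 1.87 ± 0.32, and F3, tissue factor, fell from 145, 136 and 125 to 42.5, 62.4 and 55.2 CPM (-1.34 ± 0.23).

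Metabolic and stress genes moved in parts. In glycolysis 5 rose and 3 fell of 18, while the summed level was lower in every injured input, at 1779 to 1995 against 2431 to 2972 CPM. The number rising was 2 with Yam1 in library totals, with glmTreat or without injured input 2. In this list, Hk2, an inducible hexokinase, rose from 19.9, 24.7 and 23.7 to 80.9, 111 and 111 CPM (2.15 ± 0.26), and Slc16a1, a lactate transporter, fell from 1429, 1223 and 1340 to 653, 506 and 498 (-1.27 ± 0.21). Ldha and Ldhb, the muscle- and heart-type lactate dehydrogenase chains, moved apart at 1.64 ± 0.48 and -2.63 ± 0.48. Several glycolytic genes are counted only in minor transcripts. Of 13 fatty acid oxidation genes 2 rose and 3 fell, or 15.4% and 23.1%. Cpt1a and Cpt1c, which pass fatty acids to carnitine, were the risers (0.88 ± 0.22 and 0.91 ± 0.31), and no riser was left with Yam1 in library totals, with glmTreat, or without naive input 2 or injured input 2. The co-activator Ppargc1a fell from 76.4, 77.4 and 72.0 to 11.8, 11.7 and 21.1 CPM (-2.32 ± 0.31), and Pdk4, a brake on glucose oxidation, from 114, 115 and 120 to 45.4, 28.4 and 29.4 (-1.77 ± 0.26), and Acadm, an acyl-CoA dehydrogenase, by 0.74 on the log2 scale. Of 25 redox and detoxification genes 6 rose and 10 fell. Hmox1, heme oxygenase, rose from 116, 129 and 182 to 1170, 1582 and 923 CPM (3.10 ± 0.28), and Slc7a11, the cystine importer, from 2.82, 5.55 and 3.53 to 19.7, 24.4 and 21.7 (2.46 ± 0.43). Nqo1, a quinone reductase that is a standard NRF2 target like Hmox1, fell from 29.0, 43.2 and 60.3 to 2.10, 5.29 and 11.7 CPM (-2.73 ± 0.52), as did Gsta4, a glutathione transferase (-3.96 ± 0.36), Aldh1a1, which makes retinoic acid (-3.11 ± 0.38), and Sod3, the extracellular superoxide dismutase (-2.42 ± 0.31). In iron handling the exporter Slc40a1 rose from 5.08, 11.2 and 6.31 to 24.4, 41.0 and 47.6 CPM (2.33 ± 0.41), while the plasma proteins Hp and Cp fell (-2.32 ± 0.30 and -1.79 ± 0.28) along with Fth1; Ftl1 was not called at 0.90. Of 16 stress-response genes 2 rose and 2 fell (12.5% each). Atf4, a stress transcription factor, rose from 334, 428 and 326 to 1115, 1272 and 617 CPM (1.46 ± 0.27) and Pdia4, a folding enzyme, by 0.69 ± 0.21. The chaperones Dnajb9 and Calr were called lower (-0.90 ± 0.29 and -1.01 ± 0.32) and were not called without injured input 1. With Yam1 in library totals, or with glmTreat, none of the 16 was called. The Atf4 targets Ddit3, Trib3 and Chac1 were not called at 0.08, 0.96 and -1.57. Of 26 proteasome subunits none rose and 2 fell, with a list median of -0.06. For arginine, Nos2 rose along with Arg1 (4.33 ± 1.15), and Odc1, the first polyamine enzyme, fell from 204, 131 and 58.8 to 47.3, 42.8 and 38.3 CPM (-1.62 ± 0.37).

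Neuronal and axonal markers rose in 2 and fell in 4 of 11, and in 2 and 2 with Yam1 in library totals or with glmTreat. Sncg, gamma-synuclein, fell from 564, 703 and 917 to 61.2, 37.5 and 46.0 CPM (-3.92 ± 0.28, adjusted p = 4.5e-06), and Stmn2, a microtubule regulator of growing axons, from 101, 92.7 and 84.6 to 33.4, 20.6 and 29.3 (-1.75 ± 0.27). Atf3, an injury-induced factor of neurons and Schwann cells, rose from 42.2, 32.2 and 33.5 to 121, 92.8 and 102 CPM (1.55 ± 0.24), and Tubb3 rose (1.94 ± 0.34). Nefl was called lower (-1.21 ± 0.39), but not without injured input 1 (adjusted p of 0.037 and 0.063).

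Markers of tissue around the nerve moved with injury too. All 8 tested adipocyte markers of 14 listed fell, from a summed 6466 to 7238 CPM in naive to 1084 to 1123 in injured inputs. All 5 tested skeletal muscle markers of 12 fell, from 760 to 1206 CPM to 27.3 to 119, and all 5 red blood cell markers of 7, from 616 to 914 CPM to 114 to 160. No tested marker of these 3 lists was at 0 in any library; Plin1, Lep, Myh1, Myh2, Mb, Alas2 and Slc4a1 were not among the tested transcripts. Of the muscle calls, Myh4 and the retained-intron form of Tnnt3, had overlapping groups and were lost without injured input 1. The part of these tissues in the other falling transcripts was not tested.

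**Figure D4:**
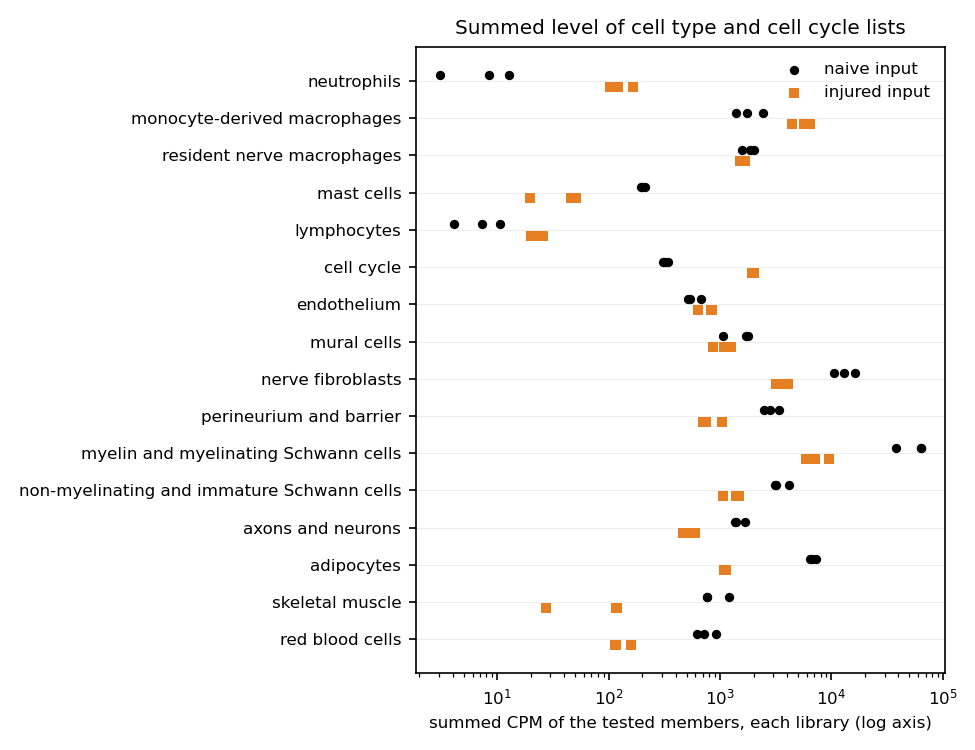
Summed CPM of the tested members of 16 lists in each library (horizontal, log axis); black circles are naive and orange squares injured inputs. The groups overlap for resident macrophages, endothelium and mural cells, and the cell cycle list lies at 1937 to 2022 CPM in injured against 308 to 341 in naive inputs.

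Noncoding transcripts changed in both directions: 25 lincRNAs rose and 33 fell of 281, and 32 antisense transcripts rose and 33 fell of 316. H19, an imprinted RNA (chr7:142575529-142578143), rose from 41.4, 66.7 and 44.0 to 235, 444 and 297 CPM (2.68 ± 0.29, adjusted p = 5.8e-05). Mirg, from the imprinted Dlk1-Dio3 cluster (chr12:109737780-109741503), rose from 4.46, 3.43 and 2.89 to 20.5, 17.4 and 28.3 CPM (2.62 ± 0.43). Gm14461 (chr2:78237547-78302230) was at 0.939, 0 and 0 and then at 22.3, 19.2 and 17 CPM (6.05 ± 1.04). No injured library of these 3 overlapped a naive one. Among fallers, B230312C02Rik (chr2:180370491-180385885) went from 369, 572 and 750 to 8.93, 27.0 and 35.2 CPM (-4.54 ± 0.45), and Gm26815 (chr8:121256747-121356836) from 80.4, 19.4 and 25.8 to 0.525, 1.73 and 2.47 (-4.58 ± 0.64). The antisense transcript Gm1992 (chr1:3466587-3513553, + strand) fell from 194, 446 and 571 to 1.84, 3.46 and 16.8 CPM (-5.66 ± 0.69), and Hoxb3os (chr11:96343072-96354691) from 40.0, 45.5 and 33.8 to 5.51, 4.47 and 5.53 (-2.94 ± 0.35). Whether strand was used in counting is not stated, so an antisense transcript and its partner gene cannot be told apart where they overlap. Gm26917 (chr17:39845074-39846245), annotated close to Yam1, was called higher with overlapping groups and lost the call without injured input 1 (adjusted p of 0.038 and 0.32).

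Transcript classes were called unequally. Of 10035 protein-coding transcripts 14.3% rose and 18.2% fell, against 9.17% and 3.06% of 1865 retained introns. Retained introns averaged fewer reads, with a median of 2.77 CPM against 20.4, and no test between classes was made. Of 144 genes with at least 2 called transcripts, 125 had them all in 1 direction and 19 had both directions, 6 of them between protein-coding transcripts. For Pid1, a regulator of glucose uptake (chr1:84036296-84284645), the longer transcript with 3 exons rose from 182, 206 and 164 to 526, 523 and 503 CPM (1.49 ± 0.20), and a shorter one with 2 exons fell from 47.4, 34.5 and 22.5 to 9.45, 11.6 and 17.3 (-1.43 ± 0.38). For Cox7c, a subunit of cytochrome oxidase, the 3-exon transcript fell from 197, 214 and 168 to 119, 64.6 and 99.0 CPM (-1.04 ± 0.25), and a 2-exon one rose from 4.77, 3.80 and 2.72 to 13.4, 19.2 and 7.73 (1.83 ± 0.51). For Ptms, parathymosin, the coding transcript fell from 665, 574 and 730 to 454, 357 and 218 CPM (-0.94 ± 0.26) while a retained-intron form rose from 3.76, 2.87 and 2.03 to 23.1, 18.8 and 9.93 (2.58 ± 0.50). Cers4, a ceramide synthase, split between 2 retained-intron forms at 1.78 ± 0.45 and -2.87 ± 0.50. For Mir99ahg, Plekha1, Adamts20 and Arl5c, at least 1 of the opposite calls was lost without injured input 1. The 19 genes became 4 without injured input 2 and 5 without naive input 2.

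The 24 pulldown libraries, which were scaled on their own counts, were used to look at the same transcripts in other sequenced samples. The labels do not say whether these came from other nerves, the differences are without a test, and neither a pulldown nor a blocked pulldown is a measure of input. By the difference of mean log2 CPM, 1314 of 1338 rising input transcripts listed there (98.2%) were higher after injury in nucleolin IP and 1248 (93.3%) in its blocked IP; of falling ones 1768 of 1858 (95.2%) and 1673 (90.0%) were lower. In PTBP1 IP 1603 of 1707 rising (93.9%) and 1680 of 1894 falling ones (88.7%) kept their direction, and in its blocked IP 1475 (86.4%) and 1626 (85.9%). Of all transcripts tested in input, 51.6% to 55.6% were higher after injury in these 4 kinds of library. The 30 transcripts of largest change, 24 of which are listed for nucleolin, all kept their direction by the difference of mean log2 CPM in each kind where they were listed. By mean CPM Pmaip1 went the other way in blocked PTBP1 IP, at 47.6 in naive and 28.1 in injured libraries. The median difference of the 1338 rising transcripts listed for nucleolin was 1.37 in its IP and 1.52 in its blocked IP on the log2 scale. For the 1707 listed for PTBP1 it was 2.05 in IP and 1.82 in blocked IP. The 2 sets of transcripts differ, so the medians do not compare the antibodies.

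**Figure D5:**
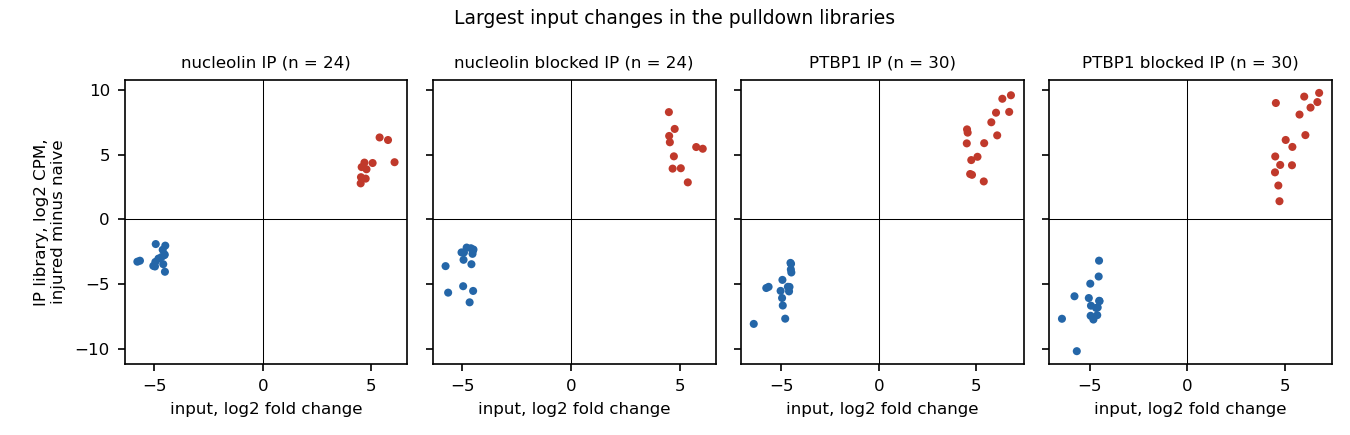
Fitted log2 fold change in input (horizontal) and difference of mean log2 CPM, injured minus naive, in 4 kinds of pulldown library (vertical), for the input transcripts of largest change. Red points rose and blue points fell in input; 24 are listed in the nucleolin tables and 30 in the PTBP1 table, and each keeps its sign on this scale, though mean CPM of Pmaip1 falls in blocked PTBP1 IP.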

How the data were processed

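RNA-seq was made from 3 naive and 3 injured input samples. The authors deposited counts of each transcript as whole numbers, beside their own log2 fold changes and FDR from edgeR, per the file headers; those log2 values were not reused. Reads came from CASAVA 1.8.2 and the authors used edgeR, and the builds are mm10 and GRCm38, per the submitters' processing notes; no source used here names an aligner, a counter, the use of strand or the annotation. The table was filtered before deposit (at least 5 counts in injured inputs 2 and 3). Over the deposited tables, 126 other per-sample columns were not used. The authors' deposited table lists 2676 transcripts higher and 2606 lower at an FDR under 0.05; 3886 of the 3894 called here are called there in the same direction.

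Yam1 was removed, then edgeR 4.0.16 (R 4.3.3) was run on the 6 libraries with TMM scaling, filterByExpr, the quasi-likelihood test and Benjamini-Hochberg adjustment, threshold 0.05, with no block. CPM use TMM-scaled totals without Yam1. The SE of a log2 fold change was worked back from the test, as its absolute value over the square root of the F statistic. Counts of 0 in a group were bounded at 3 counts over that group, and ratios with 1 to 3 counts have 95% exact binomial intervals; both cover counting error only. Annotation is GENCODE M21 (GRCm38), which held 98.1% of the transcripts; rows without a symbol number 199. On simulated counts of 14197 transcripts, 200 were given a change. Of these, 84% of 8-fold, 54% of 4-fold, 4% of 2-fold and 2% of 1.5-fold changes were recovered, with 4 false calls of 13997. Small changes were mostly missed in that simulation. A far larger share, 27.4%, was called in the data, and the adjusted p depends on that share. The simulated recovery therefore need not hold for the data.

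Members and lists were chosen with earlier results of these data known. Named transcripts followed rules: the 15 largest changes per direction with at least 50 CPM in the higher group and groups apart; up to 6 called members per list and direction; up to 8 genes with opposite calls; the 10 most abundant per group; Yam1, Lars2 and Gm15564; up to 5 noncoding per class and direction with at least 10 CPM. Pulldown libraries were scaled by TMM per antibody without Yam1 (prior count 2); for naive nucleolin, a column whose name carries PCP was taken as blocked library 3. Same-numbered naive and injured samples had correlated deviations of 0.156, 0.0599 and 0.134. For samples of different numbers the values were 0.00729, -0.161, -0.142, 0.0985, -0.0887 and -0.0637. Whether equal numbers mark pairs was not tested, and the main fit treats the samples as unpaired. A fit that pairs them by number gave 4338 calls, against 3894 in the main fit. Replicates differed by more than sampling noise in each pair (chi-square over degrees of freedom 58 or more). Alternatives in scaling, filter, test and libraries were run, DESeq2 1.42.0 and limma 3.58.1 included. Some genes counted in the lists are not reported here by name.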

Additional observations from a re-analysis of the deposited data

How the results depend on the processing

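The 3894 calls (1841 rising, 2053 falling) became 2327 (846 rising) with library totals that keep Yam1, and 1442 (688 rising, 754 falling) when tested against a 2-fold change with glmTreat. Leaving out 1 library gave 2548 to 3798 calls, 1194 to 1936 rising and 1267 to 1862 falling, lowest without naive input 2 or injured input 2. The share of calls that rose, 47.3%, was 36.4% with Yam1 in library totals and 46.0% to 55.1% under the other settings, and the median log2 fold change moved by -0.181 with Yam1 in library totals, 0.105 with totals without Yam1 and 0.136 with upper-quartile factors. The 320 listed genes called became 188 with glmTreat and 263 to 317 without 1 library. The 19 genes with opposite calls became 2 with Yam1 in library totals, 41 with DESeq2, 1 with glmTreat, 33 with the replicate block and 4 to 24 without 1 library. The 632 calls outside the protein-coding class became 378 with Yam1 in library totals, 222 with glmTreat and 344 to 619 without 1 library. With library totals in place of TMM, the shares that kept direction were 89.5% and 83.4% in blocked PTBP1 IP (rising and falling), 94.0% in nucleolin IP (falling), and 95.4% and 87.2% in blocked nucleolin IP. The replicate block moved no count of all calls by over 1.5 times; with it, 398 of the named calls stayed called and 3 did not, and injured input 2 did not correlate best with naive input 2. No named call changed sign under any transcript-level setting run; 169 named calls were lost with glmTreat, 109 with Yam1 in library totals, and 33 to 82 without 1 library. The cause of these changes was not tested.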
